A study of Macaca fascicularis with 32 samples.

Results

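C1QA, C1QB and C3 are 3 of the 22316 genes in the deposited annotation and were found by their symbols. They were followed through every cell class of single-nucleus RNA libraries from the brains of cynomolgus macaques. Complement is an innate immune system of plasma proteins, which brain cells also make. C1QA and C1QB encode the A and B chains of C1q, which binds antibodies, dying cells and synapses and opens the classical pathway; C1QC encodes the remaining chain and was read beside them. C3 is the protein on which all pathways converge, and its cleavage yields fragments that coat targets for uptake by phagocytes. In the brain, microglia are the main source of C1q, and the cell types that make C3 vary with state and species.

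PD animals carried a model of Parkinson's disease, which combines a viral vector of the AAV type with poly(ADP-ribose), the polymer that PARP enzymes build; CT animals were the controls. The labels give the treatment only as PD or CT. Dose, injection site, promoter, survival time, age, and what the CT animals received are not given in the sources used here. Nuclei came from the substantia nigra (SN), which holds dopamine neurons, and from its striatal targets, the putamen (PUT) and caudate nucleus (CN, "Caudal nucleus" in the labels). The labels list 32 samples: 4 for SN PD and 4 for SN CT, 4 for PUT PD and 8 for PUT CT, and 4 for CN PD and 8 for CN CT. Whether the samples of a group are separate animals is not stated.

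Counts were deposited as 6 matrices, split by region and treatment. The barcodes carry no sample names, so each matrix was treated as 1 library. Treatment therefore cannot be told apart from animal or library. There is no replicate to check a difference against, and no test between groups was made. The libraries held 7702 to 10389 barcodes and 18692617 to 36723856 UMIs (unique molecular identifiers, each a counted RNA molecule). Of 56659 barcodes, 52728 were retained, and 773 barcode sequences occurred in more than 1 library. Levels are in CPM, a gene's UMIs per 1000000 UMIs of its class and library. Intervals are exact 95% intervals for counting error only, so they do not cover the spread between animals. Free RNA, which can put UMIs of a gene into nuclei that do not express it, was not corrected for.

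C1QA, C1QB and C3 were each highest, among classes of at least 100 nuclei, in microglia or macrophage-like nuclei in all 6 libraries. This class was named from markers that include CSF1R, a receptor that these cells need to survive, and CX3CR1, a chemokine receptor of microglia. All 14 markers of the list had UMIs in the class in all 6 libraries. It held 166 nuclei in SN PD and 689 in SN CT, 405 in PUT PD and 350 in PUT CT, and 330 in CN PD and 187 in CN CT. No complement gene was used to cluster or name nuclei.

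In the substantia nigra C1QA and C3 differed in opposite directions between the libraries. C1QA had 215 CPM in SN PD (150.3 to 297; 36 UMIs) and 80.0 CPM in SN CT (60.9 to 103; 59 UMIs). The ratio of SN PD to SN CT was 2.68 (1.72 to 4.13), or 1.43 on the log2 scale. C1QB had 71.6 CPM in SN PD (37.0 to 125; 12 UMIs) and 58.3 CPM in SN CT (42.2 to 78.5; 43 UMIs), a ratio of 1.23 whose interval includes 1 (0.589 to 2.37). C1QC had 89.4 CPM in SN PD (15 UMIs) and 44.7 CPM in SN CT (33 UMIs) and was below the minimum of 50 UMIs over both libraries. Of the 36 C1QA UMIs in SN PD, 27 lay in 159 of the 166 nuclei, a sub-cluster treated below. The C1QA ratio within that sub-cluster was 2.14 (1.30 to 3.43).

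C3 had 334 CPM in SN PD (252 to 434; 56 UMIs) and 670 CPM in SN CT (612 to 731; 494 UMIs), a ratio of 0.499 (0.371 to 0.658). On the log2 scale, with 0.5 UMI added, the ratio was -0.99, at the edge of a 2-fold difference. C1QA was past a 2-fold difference, while C1QB and, by that margin, C3 were not. Among 3942 genes with 50 UMIs, 2.31% were 2-fold or more higher and 4.16% 2-fold or more lower in SN PD. Counting the gene itself, 31 genes had a log2 ratio as high as that of C1QA or higher, and 168 had one as low as that of C3 or lower. The median log2 ratio over these genes was 0.02.

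**Figure D1:**
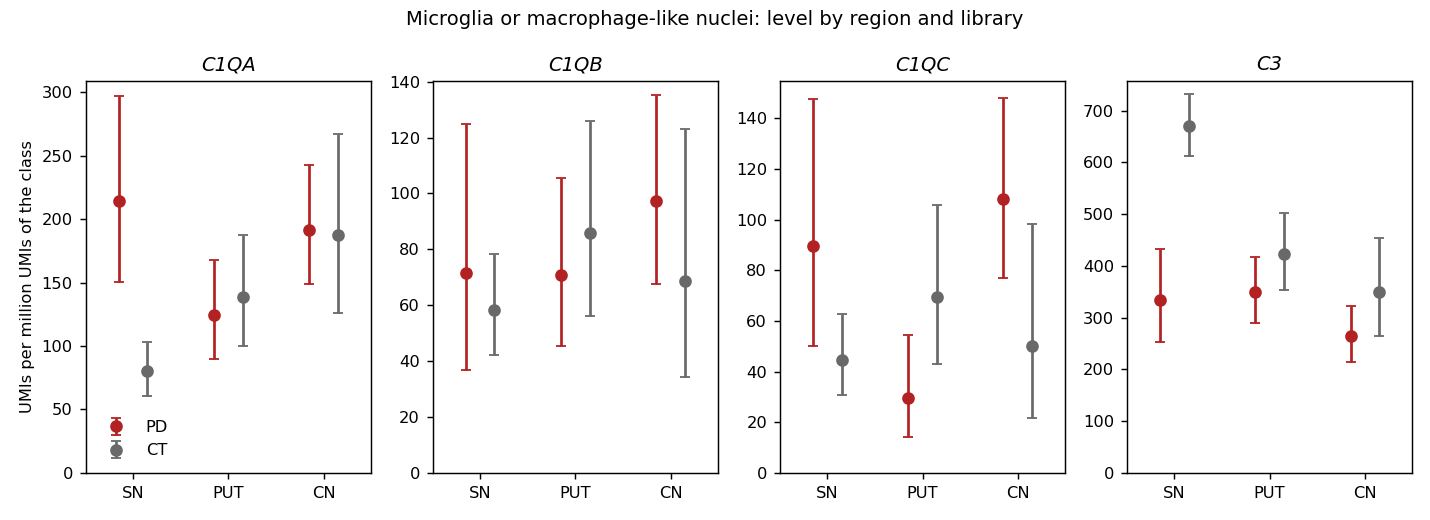
Level of each gene (UMIs per 1000000 UMIs of the class) in microglia or macrophage-like nuclei, PD left of CT in each region, with exact 95% Poisson intervals. In SN the intervals of PD and CT are apart for C1QA (215 against 80.0 CPM) and for C3 (334 against 670 CPM), while in PUT and CN they overlap for every gene shown.

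The size of these SN differences depended on which SN PD nuclei were counted in the class. In the clustering used here, 781 further SN PD nuclei fell into a cluster that held 16 nuclei of SN CT and was left unnamed. Its leading genes included F13A1, a coagulation factor subunit made by macrophages, CD4, GPNMB and CLEC7A, a fungal receptor of myeloid cells. Its strongest marker list was that of oligodendrocytes, the myelin-forming cells. In these 781 nuclei C1QA had 124 CPM (107 to 142), C1QB 67.1 CPM (55.1 to 81.0) and C3 83.8 CPM (70.3 to 99.1). Their C1QA and C3 levels were thus below those of the SN PD nuclei in the class, 215 CPM and 334 CPM. Their C1QB level was near that of the class, 71.6 CPM. How far oligodendrocyte RNA in these nuclei lowers such levels was not tested.

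With 4 other random seeds of the clustering, chosen after seeing the data, the class held 565 to 587 SN PD nuclei, of which 360 to 387 came from that cluster. The log2 ratio of C3 then lay between -2.167 and -1.995, that of C1QA between 1.43 and 1.57, and that of C1QB between 0.65 and 0.83. Counting other settings too, 9 other ways of drawing the class gave log2 ratios of C3 from -2.17 to -1.08, and 8 of them held 480 or more SN PD nuclei with C3 at -1.79 or lower. C1QA was past 2-fold in all 9, with log2 ratios of 1.28 to 1.58, and C1QB lay between 0.44 and 1.07. The directions in SN were the same each time, and the values with 166 nuclei lie at the small end for C3.

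**Figure D2:**
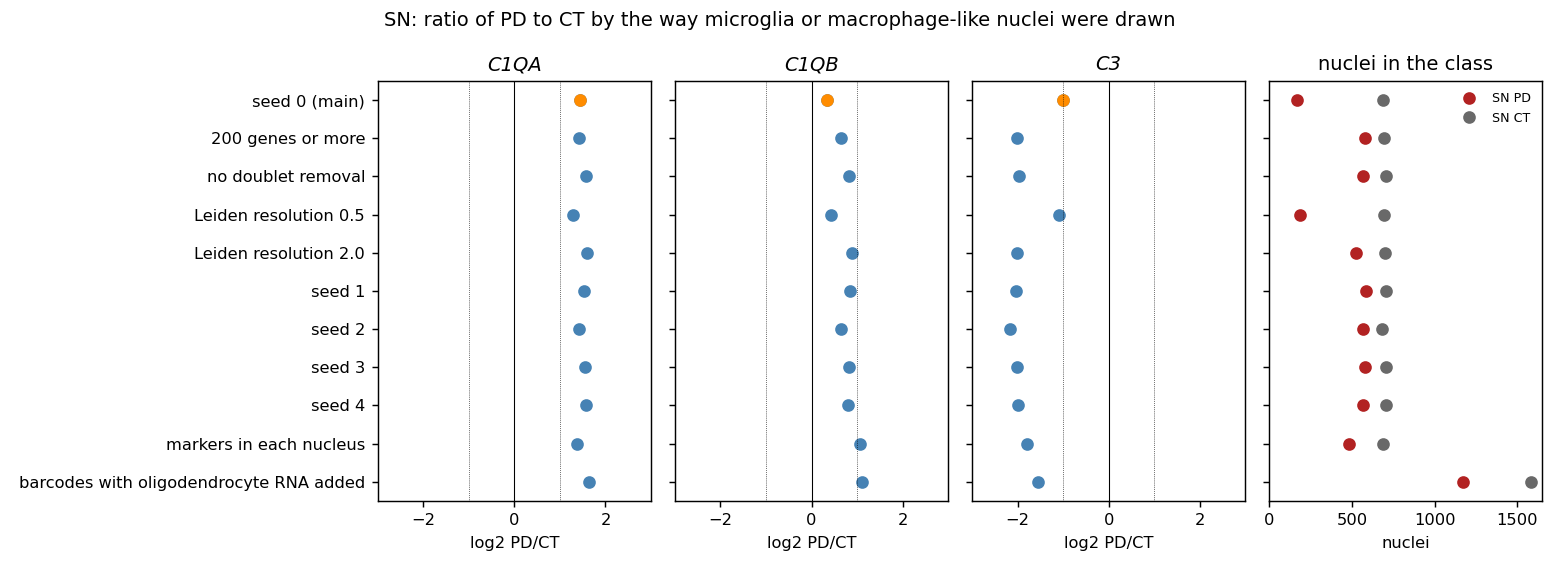
Log2 ratio of SN PD to SN CT for each gene, and nuclei of each library in the class, by the way microglia or macrophage-like nuclei were drawn; orange marks the values given first, and dotted lines mark 2-fold. C3 lies at -0.99 where the class holds 166 SN PD nuclei and at -1.79 or lower in the 8 groupings with 480 to 587, while C1QA is above 2-fold throughout.

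Over all retained nuclei, where no class is assigned and the clustering has no part, C1QA had 28.3 CPM in SN PD and 13.9 CPM in SN CT (ratio 2.03, 1.75 to 2.35). C1QB had 20.7 CPM in SN PD and 12.3 CPM in SN CT (1.68, 1.43 to 1.98), and C3 21.5 CPM in SN PD and 65.2 CPM in SN CT (0.330, 0.294 to 0.370). In such totals fewer cells of a type and less RNA per cell cannot be told apart. As drawn here, the class made up 2.004% of SN PD and 7.10% of SN CT nuclei. It made up 5.65% of PUT PD and 3.62% of PUT CT nuclei, and 3.60% of CN PD and 2.14% of CN CT nuclei. The SN PD share moved with the clustering. With the 4 other seeds the class held 565 to 587 SN PD and 682 to 709 SN CT nuclei, against 166 and 689 here. The low share in SN PD is therefore not a stable result. As drawn here, the class held 14.5% (SN PD) to 54.4% (PUT PD) of the C3 UMIs of a library.

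In the striatum the differences of C1QA and C3 within the class were smaller than in SN. In the putamen C1QA had 124 CPM in PUT PD and 139 CPM in PUT CT (ratio 0.895, 0.570 to 1.41). C1QB had 71.0 CPM in PUT PD and 85.8 CPM in PUT CT (0.826, 0.454 to 1.50). C3 had 349 CPM in PUT PD and 423 CPM in PUT CT (0.825, 0.637 to 1.07). All 3 intervals include 1. None of the 3 genes was past a 2-fold difference; 2.35% of 3103 genes were 2-fold or more higher and 2.13% lower in PUT PD.

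In the caudate nucleus C1QA had 192 CPM in CN PD and 187 CPM in CN CT (ratio 1.02, 0.657 to 1.63). C3 had 264 CPM in CN PD and 349.8 CPM in CN CT (0.754, 0.537 to 1.07). C1QB had 97.2 CPM in CN PD (35 UMIs) and 68.7 CPM in CN CT (11 UMIs), below the minimum, with a ratio of 1.41 (0.702 to 3.09). All 3 intervals include 1. Neither measured gene was past a 2-fold difference here, where 3.81% of 2548 genes were 2-fold or more higher and 1.61% lower in CN PD. C1QC was below the minimum in both striatal regions, with 29.6 CPM in PUT PD and 69.3 CPM in PUT CT, and 108 CPM in CN PD and 49.96 CPM in CN CT. Its log2 ratio was -1.19 in PUT (10 UMIs in PUT PD and 21 in PUT CT) and 1.05 in CN (39 UMIs in CN PD and 8 in CN CT). In the striatal sub-cluster treated below, its ratio was 0.415 in PUT (0.174 to 0.920) and 2.06 in CN (0.949 to 5.10).

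Over all nuclei of CN, by contrast, all 3 genes were higher, C1QA at 6.74 CPM in CN PD and 4.49 CPM in CN CT (1.50, 1.20 to 1.89), C1QB at 4.57 CPM in CN PD and 3.05 CPM in CN CT (1.50, 1.14 to 1.98) and C3 at 7.26 CPM in CN PD and 5.74 CPM in CN CT (1.26, 1.03 to 1.55). Beside this stands the larger share of the class in CN PD. In PUT, C1QB was lower over all nuclei at 3.49 CPM in PUT PD and 5.67 CPM in PUT CT (0.614, 0.461 to 0.813), and C3 at 10.4 CPM in PUT PD and 14.6 CPM in PUT CT (0.709, 0.600 to 0.836), although the class was a larger share of PUT PD. C1QA had 7.40 CPM in PUT PD and 7.92 CPM in PUT CT (0.935, 0.759 to 1.15).

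Ordered by level in the class, C1QA ran from SN PD through CN PD, CN CT, PUT CT and PUT PD to SN CT, and the intervals of neighbours in that order overlapped throughout. C1QB ran from CN PD through PUT CT, SN PD, PUT PD and CN CT to SN CT, again with overlapping neighbours. C3 ran from SN CT through PUT CT, CN CT, PUT PD and SN PD to CN PD, and there SN CT stood clear of its neighbour. SN CT was thus the lowest library for C1QA and C1QB and the highest for C3. Its C1QB interval (42.2 to 78.5) overlapped that of every other library. For C1QC the lowest library was PUT PD (29.6 CPM), with SN CT next (44.7 CPM). Among the CT libraries, C3 was 1.58 times as high in SN as in PUT (1.30 to 1.94) and 1.91 times as high in SN as in CN (1.45 to 2.57). C1QA was 0.577 times as high in SN CT as in PUT CT (0.382 to 0.878) and 0.427 times as high as in CN CT (0.271 to 0.686). For C1QB the ratios of SN CT to PUT CT (0.679, 0.408 to 1.15) and of SN CT to CN CT (0.848, 0.430 to 1.82) had intervals that include 1.

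The opposite directions were also read as 1 quantity, the UMIs of C1QA plus C1QB for each UMI of C3 in the same nuclei, which does not depend on the scaling of a library. Its absolute value depends on how well each gene is captured, so it was compared only between libraries and classes. Microglia or macrophage-like nuclei had a ratio of 0.857 in SN PD (48 and 56 UMIs) and 0.206 in SN CT (102 and 494 UMIs), an odds ratio of 4.14 (2.60 to 6.59), or 2.05 on the log2 scale. With the 4 other seeds that log2 value lay between 3.29 and 3.31. In the putamen the ratio was 0.559 in PUT PD and 0.531 in PUT CT (odds ratio 1.05, 0.676 to 1.64). In the caudate nucleus it was 1.09 in CN PD and 0.732 in CN CT (1.49, 0.891 to 2.52). Over all nuclei of SN it was 2.28 in SN PD and 0.403 in SN CT (5.65, 4.83 to 6.62).

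**Figure D3:**
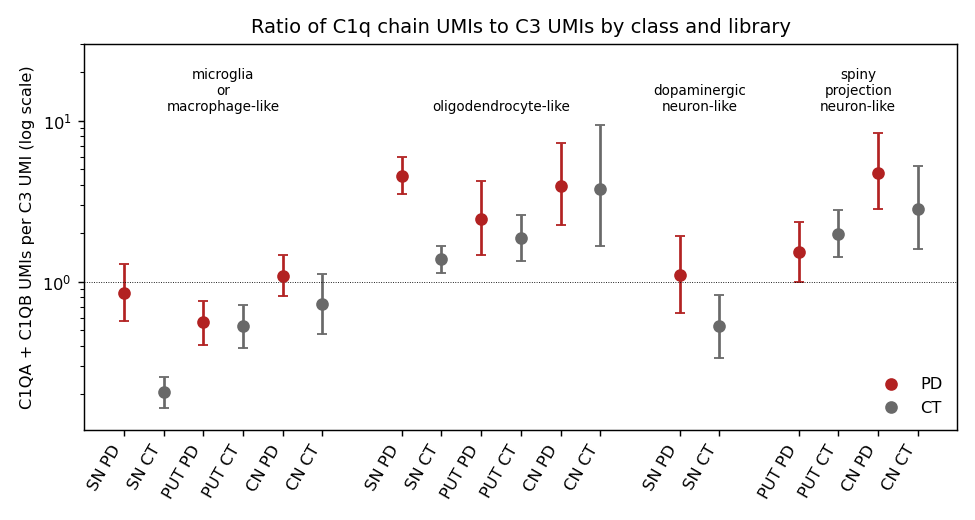
UMIs of C1QA plus C1QB for each UMI of C3 (log scale) by cell class and library, with exact 95% binomial intervals, for cases with at least 20 such UMIs. PD stands above CT in SN in microglia or macrophage-like nuclei (0.857 against 0.206) and in oligodendrocyte-like nuclei (4.55 against 1.38), while the intervals of PD and CT in microglia or macrophage-like nuclei overlap in PUT and CN.

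The share of nuclei with at least 1 UMI followed the levels. C1QA was detected in 16.9% of SN PD nuclei of the class (11.5 to 23.4) and 8.27% of SN CT nuclei (6.33 to 10.6; Clopper-Pearson). C3 was detected in 25.9% of SN PD nuclei (19.4 to 33.3) and 43.1% of SN CT nuclei (39.4 to 46.9). The median depths were 932.5 UMIs in SN PD and 848 UMIs in SN CT. With every nucleus thinned to 500 UMIs, the C1QA shares were 7.83% in SN PD and 3.34% in SN CT, and the C3 shares 16.9% in SN PD and 25.1% in SN CT. Dopaminergic neuron-like nuclei were read beside the class, at far greater median depths of 14133 UMIs in SN PD and 14297 UMIs in SN CT. There C1QA was detected in 5.76% of SN PD and 4.48% of SN CT nuclei and C3 in 8.99% of SN PD and 15.4% of SN CT nuclei. Thinned to 500 UMIs, these shares were 0% in SN PD and 0.280% in SN CT for C1QA, and 0% in SN PD and 0.560% in SN CT for C3. In oligodendrocyte-like nuclei the thinned shares were 1.42% in SN PD and 0.828% in SN CT for C1QA. For C3 they were 0.385% in SN PD and 0.903% in SN CT. The share due to free RNA was not estimated in either class.

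C1q and C3 UMIs occurred partly in the same nuclei. In SN PD, 26 nuclei of the class had a C1QA or C1QB UMI without C3, 33 had C3 without those chains, and 10 had both. In SN CT the same counts were 44, 247 and 50. C3 was detected in 27.8% of the nuclei with a C1q UMI in SN PD, against 25.4% of those without one, while in SN CT it was detected in 53.2% of nuclei with a C1q UMI and 41.5% of those without.

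Clustered again, the class split by region into 2 sub-clusters, both left unnamed because neuron genes led them. Sub-cluster 0, led by SLC6A3, the dopamine transporter, and DDC, a dopamine synthesis enzyme, held 159 SN PD nuclei (95.8% of the class there) and 686 SN CT nuclei (99.6%). Sub-cluster 1, whose leading genes included PDE10A and PPP1R1B of striatal neurons, held 398 PUT PD and 334 PUT CT nuclei, and 325 CN PD and 175 CN CT nuclei. Within sub-cluster 0, C1QA had 168 CPM in SN PD (27 UMIs) and 78.9 CPM in SN CT (58 UMIs), a ratio of 2.14 (1.30 to 3.43). C3 had 349 CPM in SN PD and 670 CPM in SN CT, a ratio of 0.521 (0.388 to 0.688). C1QA was past a 2-fold difference there and C3 was not, where 2.27% of 3916 genes were 2-fold or more higher and 4.55% lower in SN PD. The odds ratio of C1q to C3 in sub-cluster 0 was 3.39 (2.08 to 5.51). The class as a whole had 36 C1QA UMIs in 28 SN PD nuclei, and 26 of these nuclei were in sub-cluster 0. The C1QA UMIs outside it lay in the other 7 SN PD nuclei, so the ratio in the class leans on few nuclei. The striatal values in sub-cluster 1 stayed close to those of the class, with C3 at 351 CPM in PUT PD and 420.4 CPM in PUT CT (0.835, 0.642 to 1.09) and 268 CPM in CN PD and 339.9 CPM in CN CT (0.787, 0.554 to 1.13). No measured member was past a 2-fold difference in sub-cluster 1, where 2.51% of 3023 genes in PUT and 3.73% of 2490 genes in CN were 2-fold or more higher and 2.18% in PUT and 1.65% in CN lower.

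Markers of other cells also differed in the SN class. The 6 border macrophage markers summed to 399.5 CPM in SN PD and 260.3 CPM in SN CT, with 4 of them higher in SN PD and 1 at 0 UMIs there. The 4 microglia markers in the annotation summed to 435 CPM in SN PD and 728 CPM in SN CT, with 1 higher in SN PD. The 10 T or NK lymphocyte markers summed to 65.6 CPM in SN PD and 21.7 CPM in SN CT, with 4 at 0 UMIs in each library. The 5 neuron markers summed to 394 CPM in SN PD and 236 CPM in SN CT, with 4 higher in SN PD, and the 7 dopaminergic neuron markers to 179 CPM in SN PD and 122 CPM in SN CT, with 5 higher. The 7 astrocyte markers summed to 1497 CPM in SN PD and 1164 CPM in SN CT, with 3 higher, and the 8 endothelial markers to 704 CPM in SN PD and 575 CPM in SN CT, with 5 higher. The 10 oligodendrocyte markers summed to 3178 CPM in SN PD and 3439 CPM in SN CT, with 4 higher. Their part in the C1q and C3 differences was not tested.

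Barcodes with both myeloid and oligodendrocyte RNA, in 6 clusters left out of every class, showed the same directions in SN. They made up 12.1% of retained barcodes in SN PD (1004, including the 781 above) and 9.20% in SN CT (892). C1QA had 108 CPM in SN PD and 25.6 CPM in SN CT (ratio 4.23, 3.22 to 5.61), and C1QB 59.0 CPM in SN PD and 19.3 CPM in SN CT (3.06, 2.20 to 4.31). C3 had 88.7 CPM in SN PD and 211 CPM in SN CT (0.420, 0.355 to 0.495). The cluster that held most such barcodes of SN CT had C3 at 157 CPM in 141 SN PD nuclei and 221 CPM in 701 SN CT nuclei. In PUT these barcodes had 90.9 CPM of C3 in PUT PD and 237 CPM in PUT CT (0.383, 0.240 to 0.592), and in CN 134 CPM in CN PD and 151 CPM in CN CT (0.890, 0.584 to 1.36).

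The genes were lower in the other classes of at least 100 nuclei, by a margin that counting error did not always clear. In oligodendrocyte precursor-like nuclei of SN PD, C1QB had 30.9 CPM (16.9 to 51.8; 14 UMIs), or 43.1% of its level in microglia or macrophage-like nuclei, and the intervals overlap. In SN CT it had 9.23 CPM in precursors (5 UMIs). C3 in precursors had 11.02 CPM in SN PD (5 UMIs) and 27.7 CPM in SN CT (15 UMIs). In the remaining neurons of SN, C1QB had 9.60 CPM in SN PD (9 UMIs) and 4.02 CPM in SN CT (3 UMIs), and C3 4.27 CPM in SN PD (4 UMIs) and 21.4 CPM in SN CT (16 UMIs).

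The oligodendrocyte-like class was made of different clusters in PD and CT. The clusters that took a larger share of PD than of CT nuclei held 92.1% of SN PD and 6.94% of SN CT nuclei of the class, 90.5% of PUT PD and 5.13% of PUT CT nuclei, and 82.1% of CN PD and 8.09% of CN CT nuclei. The part of this split in the differences within the class was not tested.

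In oligodendrocyte-like nuclei C1QA had 23.6 CPM in SN PD and 13.9 CPM in SN CT (ratio 1.69, 1.34 to 2.15), and C1QB had 23.4 CPM in SN PD and 14.5 CPM in SN CT (1.62, 1.28 to 2.05). C3 had 10.3 CPM in SN PD and 20.6 CPM in SN CT (0.501, 0.377 to 0.658). The C1q to C3 ratio was 4.55 in SN PD and 1.38 in SN CT (odds ratio 3.30, 2.39 to 4.59). These are the directions of the microglia or macrophage-like class at a fraction of its level. None of the 3 was past a 2-fold difference in SN, where 2.57% of 11740 genes were 2-fold or more higher and 3.31% lower in SN PD.

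In PUT oligodendrocyte-like nuclei C1QB had 4.14 CPM in PUT PD (15 UMIs) and 12.4 CPM in PUT CT (58 UMIs), a ratio of 0.333 (0.175 to 0.594). C3 had 6.07 CPM in PUT PD and 12.7 CPM in PUT CT (0.479, 0.280 to 0.794). C1QA had 10.8 CPM in PUT PD and 11.2 CPM in PUT CT (0.964, 0.620 to 1.49). C1QB and C3 were thus past a 2-fold difference downward, as were 4.13% of 10210 genes, while 1.53% were 2-fold or more higher. In CN, C1QA alone had 50 UMIs, with 8.93 CPM in CN PD and 9.45 CPM in CN CT (0.945, 0.511 to 1.82). It was not past a 2-fold difference, as 1.51% of 9125 genes were upward and 2.99% downward.

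Relative to the microglia or macrophage-like level of the same library, oligodendrocyte-like nuclei held between 4.66% (CN PD) and 17.4% (SN CT) of the C1QA level and between 5.83% (PUT PD) and 32.7% (SN PD) of the C1QB level. For C3 they held between 1.35% (CN CT) and 3.09% (SN PD). The median over the 14 class markers lay between 0.720% (CN CT) and 1.63% (SN PD). The highest single marker lay between 22.5% (CN CT) and 34.7% (SN PD). The C1q chains and C3 thus stood above the marker median, and below the highest marker, in all 6 libraries. Whether oligodendrocyte-like nuclei made these RNAs or carried them from other cells was not tested.

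In dopaminergic neuron-like nuclei C3 had 6.98 CPM in SN PD (28 UMIs) and 11.5 CPM in SN CT (62 UMIs), a ratio of 0.606 (0.373 to 0.961). It was not past a 2-fold difference, where 2.0% of 10740 genes were 2-fold or more higher and 1.86% lower in SN PD. Of the nuclei in this class, 80.6% in SN PD and 24.1% in SN CT lay in the clusters that took a larger share of SN PD. C1QA had 4.24 CPM in SN PD and 2.98 CPM in SN CT, and C1QB 3.49 CPM in SN PD and 3.16 CPM in SN CT, each with under 50 UMIs over both libraries. In spiny projection neuron-like nuclei, the main striatal neurons, C1QB had 1.55 CPM in PUT PD and 2.61 CPM in PUT CT (0.592, 0.341 to 0.997). C1QA and C3 in PUT, and C1QA and C1QB in CN, had intervals that include 1 in that class. The share of spiny projection neuron-like nuclei with a C3 UMI was 1.19% in PUT PD and 1.43% in PUT CT, and 0.522% in CN PD and 0.599% in CN CT. This class, too, was split between PD and CT clusters. In PUT, a cluster held 1204 PD and 30 CT nuclei and another 153 PD and 1514 CT. In CN, a cluster held 1418 PD and 29 CT nuclei and another 37 PD and 1698 CT. A neuronal cluster of 9 CN PD and 1771 CN CT nuclei was left unnamed. The part of this split in the differences was not tested.

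Astrocytes can make C3 in reactive states in mouse and human tissue. C3 had 0 UMIs in the astrocyte-like nuclei of SN PD (46 nuclei) and 2 UMIs in those of SN CT (84 nuclei), 0 UMIs in PUT PD (113 nuclei) and 0 UMIs in PUT CT (152 nuclei), and 2 UMIs in CN PD (245 nuclei) and 2 UMIs in CN CT (438 nuclei). A count of 0 allows up to 40.4 CPM in SN PD, 19.3 CPM in PUT PD and 12.6 CPM in PUT CT, at 3 counts. Clusters with the astrocyte marker GFAP among their leading genes were mixed or unnamed and so outside this class. The largest of them, a mixed cluster, held 34 SN PD and 111 SN CT nuclei. All mixed nuclei together had 6 C3 UMIs in SN PD (5.52 CPM) and 22 in SN CT (35.3 CPM). The counts of 0 and 2 in SN thus do not cover all its astrocytes. Fibroblast-like nuclei, another known source of C3, numbered 20 in SN PD and 20 in SN CT and had 1 and 4 C3 UMIs, too few to set apart.

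**Figure D4:**
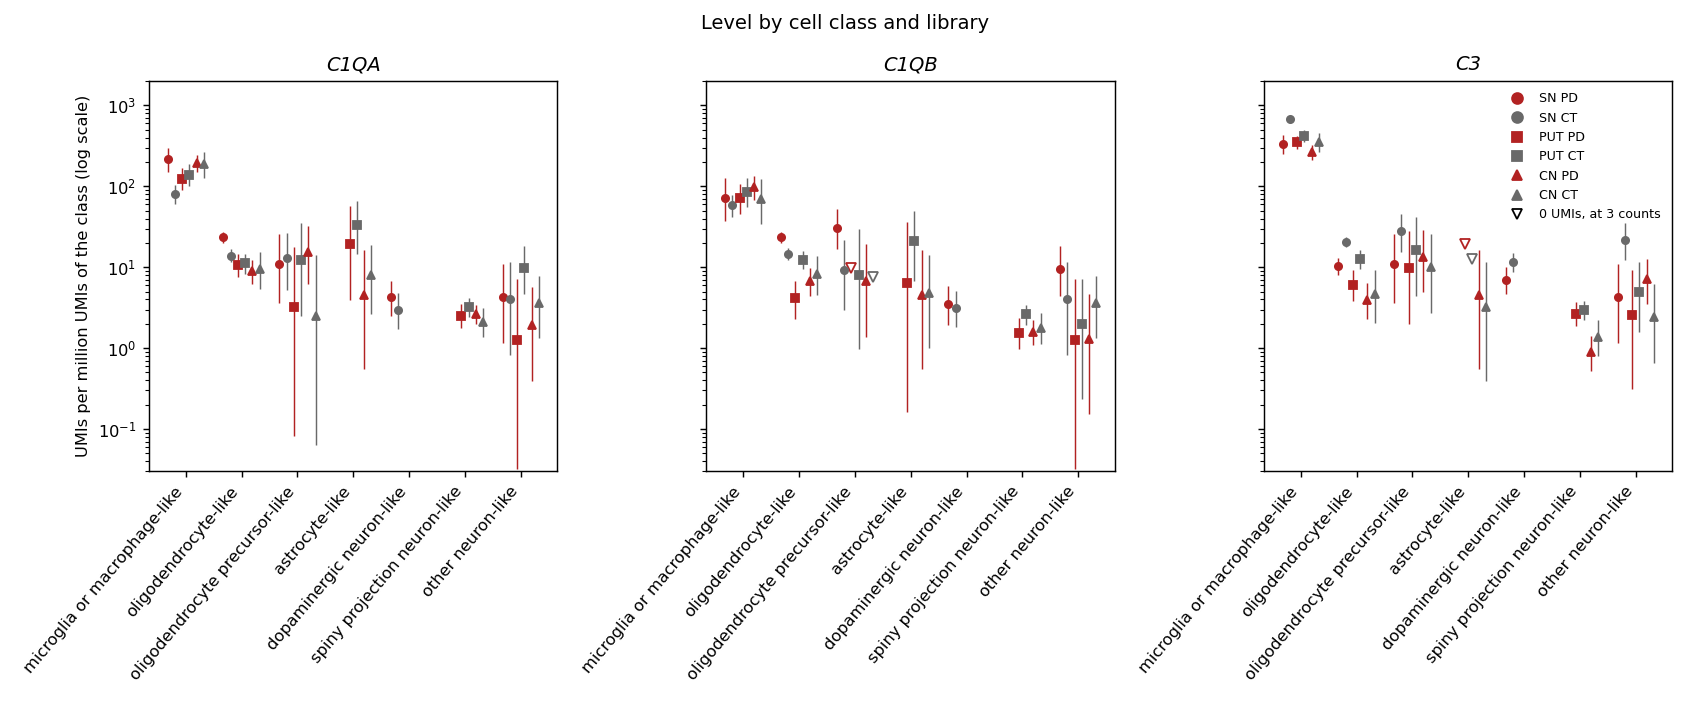
Level of C1QA, C1QB and C3 (UMIs per 1000000 UMIs of the class, log scale) by class and library, for classes of at least 100 nuclei, PD in red and CT in grey, with exact 95% Poisson intervals; open triangles stand at 3 counts where no UMI was found. All 3 genes are highest in microglia or macrophage-like nuclei of every library.

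Of 51 listed complement genes 40 were in the files, and 12 had 50 UMIs or more in microglia or macrophage-like nuclei of SN. Of the 12, 1 was 2-fold or more higher in SN PD and 1 lower, where 2.31% of all 3942 genes tested were higher and 4.16% lower. Their median log2 ratio was 0.14, against 0.02 over all genes tested. The higher one was C1QA. The lower one was ITGAX, the alpha chain of complement receptor CR4, with 59.6 CPM in SN PD (10 UMIs) and 182 CPM in SN CT (134 UMIs), a ratio of 0.328 (0.154 to 0.623). These counts were not repeated with the other seeds.

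The remaining SN genes were chosen for mention after their values were seen. ITGAM, the alpha chain of the C3 fragment receptor CR3, had 525 CPM in SN PD and 682 CPM in SN CT (0.770, 0.606 to 0.967). C3 and both receptor chains were thus lower in SN PD, while ITGB2, the beta chain they share, had 65.6 CPM in SN PD and 61.0 CPM in SN CT (1.08, 0.502 to 2.11). Of the genes that restrain complement on a cell's own surface, CD55 had 71.6 CPM in SN PD and 54.2 CPM in SN CT (1.32, 0.630 to 2.57) and CD46 had 339.9 CPM in SN PD and 267 CPM in SN CT (1.27, 0.931 to 1.72). VSIG4, a macrophage receptor for C3 fragments, was below the minimum, with 9 UMIs in SN PD and 2 in SN CT.

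In PUT 9 and in CN 6 list genes had 50 UMIs, and 0 were past a 2-fold difference in either region. No list gene had an interval that excluded 1 in the same direction in all 3 regions. ITGAM had 399 CPM in PUT PD and 601 CPM in PUT CT (0.664, 0.528 to 0.834), and 486 CPM in CN PD and 418 CPM in CN CT (1.16, 0.872 to 1.56). CSMD1, a complement regulator also chosen after its values were seen, had a ratio of 0.661 in SN (0.462 to 0.925), 1.41 in PUT (1.09 to 1.83) and 1.50 in CN (1.13 to 2.01).

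The genes whose pattern was most like each member were taken over 36 combinations of class and library, among 13639 genes, as the Pearson correlation of log2(CPM + 1). These combinations share libraries and depth, so the values are descriptive. For C1QA the leading genes were ATF6 (0.92), TRIM22, C1QB (0.92), TLN1 and WDFY4. For C1QB they were C1QA (0.92), TRIM22, ATP6V0E1, TSPAN14 and DRAM2. For C3 they were SUSD6 (0.94), TMEM273, VAV1, COMMD10 and HPS3. C3 correlated with C1QA at 0.78 and with C1QB at 0.72, at rank 477 among the genes most like C1QA and rank 519 among those most like C1QB. C1QC correlated with C1QA at 0.75 (rank 672), with C1QB at 0.73 (rank 469) and with C3 at 0.80. By this measure C1QC was thus no closer to C1QA than C3 was, and about as close to C1QB. In the RefSeq annotation of assembly T2T-MFA8v1.1, C1QB, C1QC and C1QA lie next to each other on chromosome 1, and C3 lies on chromosome 19. The deposited counts use another annotation.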

How the data were processed

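Per the labels' protocols, nuclei were loaded on a 10x Chromium and libraries made with its 3′ v3 kit; the protocol writes Macaca mulatta, the organism field Macaca fascicularis. The authors deposited raw UMI counts per gene and barcode, with no normalization. Per the submitters' processing notes they were made with Cell Ranger 7.0.1, and hg38 is named as build, although the gene identifiers belong to Macaca fascicularis, with a release not given in the sources used here. Of 22316 genes, 16297 had a symbol.

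Barcodes were kept with 500 or more genes, mitochondrial UMIs of no more than 5% and a Scrublet doublet score up to 0.25, which 1.66% to 5.63% of a library's barcodes exceeded. Median depth was 1170 UMIs in SN PD and 1245 in SN CT, 1959 in PUT PD and 2018.5 in PUT CT, and 2665 in CN PD and 3022 in CN CT. With scanpy 1.11.5, 2000 variable genes without the complement list, 30 principal components and 15 neighbours gave Leiden clusters at resolution 1.0 and random seed 0, without batch correction; seeds 1, 2, 3 and 4 were added after seeing the data, because the nuclei named in SN PD changed with the clustering. Clusters were clustered again and named "-like" from 112 markers, 109 of them in the files. Mixed and unnamed clusters stayed out of the classes.

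UMIs were summed per class and library. Intervals are exact: Poisson for levels, conditional binomial for ratios and Clopper-Pearson for shares. For log2 ratios, 0.5 UMI was added on both sides. Classes with at least 100 nuclei in both libraries were compared, and genes with at least 50 UMIs over both counted as measured. On simulated SN data, drawn as Poisson counts from the class totals, 96.7% of intervals held the true ratio. The intervals assume such counts, so this checks the calculation only. It cannot show how they behave where UMIs are clumped in few nuclei. With a planted ratio of 2 there, 34% of 50 genes came out 2-fold or more higher. With a planted ratio of 0.5, 62.79% of 43 genes came out 2-fold or more lower. With planted ratios of 4 and 0.25 these shares were 100% and 90.91%. Planting also changed the simulated totals, and unchanged genes had a median log2 ratio of -0.03. The difference between the higher and lower shares is therefore in part a product of the simulation. Whether the intervals cover the spread between animals was not tested. The genes named were C1QA, C1QB, C3 and C1QC, complement genes past 2-fold in microglia or macrophage-like nuclei or with intervals excluding 1 in all 3 regions, and the 5 genes most like each member; others named are said to be chosen afterwards. The members, gene lists and rules were chosen with earlier results of these data known.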

Additional observations from a re-analysis of the deposited data

Results flagged for a closer look

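C1QA and C1QB in microglia or macrophage-like nuclei had log2 ratios of PD to CT that differed in sign between regions. For C1QA the log2 ratio was 1.432 in SN, -0.1595 in PUT and 0.01906 in CN. For C1QB it was 0.3381 in SN, -0.2727 in PUT and 0.457 in CN. With 1 library per region and treatment the difference between regions was not tested, and among these values the interval excludes 0 for C1QA in SN alone. The signs in PUT and CN changed under some alternatives, so the sign differences there are not stable.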

How the results depend on the processing

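No paired analysis was possible because the columns carry no replicate numbers and each region and treatment has 1 matrix. Alternatives were run for the log2 ratios of C1QA, C1QB, C3 and C1q to C3 in microglia or macrophage-like nuclei. In other classes, 13 log2 ratios of C1QA, C1QB and C3 were rerun only without doublet removal, with median scaling and with thinning. None of these whose interval excludes 0 changed sign. Other complement genes, among them ITGAX, ITGAM, CSMD1, CD55, C5, COLEC12, CR1 and CR2, were not part of this check. Of 192 alternative values of 12 log2 ratios in microglia or macrophage-like nuclei, 15 had the other sign, all in PUT or CN and all of results whose interval includes 0. Among them, C1QA in PUT (-0.1595) was 0.1686 with a class from markers in each nucleus and 0.2332 with barcodes of oligodendrocyte RNA added, C1QB in PUT (-0.2727) was 0.1618 with a class from markers, and C1QB in CN (0.457) was -0.1132 on thinning. In other classes 7 of 39 did, again of results whose interval includes 0. In SN microglia or macrophage-like nuclei, the log2 ratio of C3 (-0.9925) was -2.018 with nuclei of at least 200 genes, -1.962 without doublet removal, -2.006 at Leiden resolution 2.0 and -1.788 with a class from markers in each nucleus. The log2 odds ratio of C1q to C3 (2.05) was 3.164, 3.261, 3.342 and 3.055 under the same settings. With seeds 1, 2, 3 and 4, chosen after seeing the data, C3 was -2.025, -2.167, -2.018 and -1.995, and C1q to C3 was 3.299, 3.315, 3.299 and 3.293. With the barcodes of myeloid and oligodendrocyte RNA added, also chosen after seeing the data, C3 was -1.546 and C1q to C3 2.979. These groupings held 480 to 1170 SN PD nuclei, against 166. At resolution 0.5 the class held 187 and C3 was -1.084. The other log2 ratios of the class moved by less than their intervals. At least 1000 genes per nucleus left too few nuclei for a value, and no sub-cluster was named border macrophage-like, so leaving such nuclei out removed none.

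Counts of list genes past 2-fold moved with the minimum, since more genes were tested. With 20 UMIs, 2 of 16 were higher in SN (5.15% of all genes), 1 of 14 higher and 2 lower in PUT (4.31% and 4.98%), and 1 of 14 higher and 1 lower in CN (5.82% and 4.39%). With 1 UMI, 5 of 33 were higher and 2 lower in SN (15.3% and 11.2% of all genes), 4 of 27 higher and 5 lower in PUT (15.7% and 16.2%), and 3 of 26 higher and 4 lower in CN (12.2% and 19.6%), so the list shares lay near or below those over all genes. With scaling by the median gene, C3 (-1.01) passed 2-fold and 2 were lower in SN. In neurons, 3 ratios moved on thinning, where few UMIs were left; C1QA in PUT spiny projection neuron-like nuclei was 0.4928 on thinning, against -0.331. Depth limits C1QB and C1QC most, with 11 and 8 UMIs in CN CT.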

Other observations

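Other complement genes differed between PD and CT in oligodendrocyte-like nuclei, and these were chosen after their values were seen. PD and CT nuclei of this class lay largely in different clusters in each region, and the part of that split was not tested. CD55, which speeds the decay of the enzymes that cleave C3, had 135 CPM in SN PD and 59.98 CPM in SN CT (ratio 2.26, 2.03 to 2.51), 129 CPM in PUT PD and 60.7 CPM in PUT CT (2.12, 1.83 to 2.47), and 147 CPM in CN PD and 73.2 CPM in CN CT (2.01, 1.66 to 2.46). C5, the next component after C3, had 20.4 CPM in SN PD and 8.11 CPM in SN CT (2.51, 1.88 to 3.37), 22.6 CPM in PUT PD and 5.57 CPM in PUT CT (4.06, 2.58 to 6.57), and 23.6 CPM in CN PD and 10.0 CPM in CN CT (2.35, 1.39 to 4.20). Both were higher in PD in 3 of 3 regions, where 2.57% of genes in SN, 1.53% in PUT and 1.51% in CN were 2-fold or more higher.

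In dopaminergic neuron-like nuclei 0 of 15 measured list genes were 2-fold or more higher in SN PD and 3 were lower, where 2.0% of all genes were higher and 1.86% lower. The 3 were COLEC12, CR1 and CR2, chosen for mention after their values were seen, and PD and CT nuclei were spread unequally over the clusters of this class. COLEC12 had 8.73 CPM in SN PD and 41.1 CPM in SN CT (0.212, 0.144 to 0.304). CR1, a receptor for C3 fragments on blood cells, had 57.3 CPM in SN PD and 119.9 CPM in SN CT in these neurons (0.478, 0.409 to 0.557). CR2, a receptor for C3 fragments on B cells, had 10.97 CPM in SN PD and 23.2 CPM in SN CT (0.472, 0.327 to 0.670).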
